A study of Mus musculus with 7 samples.

Results

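The clustered protocadherin genes lie in a 1 Mb window of mouse chromosome 18. The binding of CTCF and of the cohesin subunit Smc1 across it is described here in neural progenitor cells (NPCs). The members are all peaks of the CTCF and Smc1 lists whose centre lies between 37.05 and 38.05 Mb of chromosome 18 on mm9, the window that holds the Pcdha, Pcdhb and Pcdhg clusters. They number 47 of 42893 CTCF peaks and 26 of 37991 Smc1 peaks, or 73 of 80884 peaks in all. The rule used position alone, so neither overlap nor score entered the choice. Positions of single genes were not used, so the clusters below stand for the whole window. A peak was called shared when it had at least 1 bp in common with a peak of the other list, and otherwise CTCF alone or Smc1 alone.

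The study compared chromatin architecture in V6.5 embryonic stem (ES) cells, a male line of the strain 129SvJae x C57BL/6, with NPCs made from them. The NPCs came from embryoid bodies kept 4 days without the cytokine LIF, then selected for 5 to 7 days in the serum-free medium ITSFn and expanded for 2 to 4 days with Fgf2. Chromatin fixed in 1% formaldehyde was precipitated with 1 rabbit polyclonal antibody to CTCF or 1 to Smc1, and each factor was mapped by sequencing in 1 library. There is therefore no replicate of either factor, no test between conditions and no p-value below, and no peak list of ES cells was analysed here. A peak list holds no expression values, so the label of the cells was not checked against marker genes.

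Clustered protocadherins are cell surface adhesion proteins that give individual neurons different surface identities. Each gene of the Pcdha and Pcdhg clusters has its own variable first exon and promoter, spliced to constant exons shared by the cluster, whereas Pcdhb genes are single exons. CTCF is a zinc finger protein that binds many of these promoters and their distal enhancers, and cohesin, the ring complex that contains Smc1, extrudes chromatin loops that tend to stop at bound CTCF. The RefSeq table for GRCm38.p6 lists 14 Pcdha genes, from Pcdha1 to Pcdhac2, 22 Pcdhb genes, from Pcdhb1 to Pcdhb22, and 22 Pcdhg genes, from Pcdhga1 to Pcdhgc5, in this order along the chromosome. The C-type genes Pcdhac1 and Pcdhac2 stand at the end of the first cluster, and Pcdhgc3, Pcdhgc4 and Pcdhgc5 at the end of the last. Of the 58 genes 57 are listed as protein-coding, and Pcdhgb8 as a transcribed pseudogene. That table is of another genome build than the peaks, so its positions were not used and no peak was assigned to a single gene.

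CTCF peaks were dense over the clusters, and Smc1 peaks were more numerous than in most windows. The window held 47 CTCF peaks against a median of 14 (quartiles 6 and 25) in the 2480 other 1 Mb windows of chr1 to chr19. Only 100 of those windows held more CTCF peaks and 11 held as many, so 95.5% held fewer. With 26 Smc1 peaks against a median of 13 (quartiles 6 and 22), the window stood lower in the order for cohesin, since 389 windows held more Smc1 peaks and 82.5% held fewer. This order turned at scores of at least 500, where the window had 6 peaks of each factor, and 67.5% of windows held fewer CTCF peaks against 71.6% with fewer Smc1 peaks. These 6 Smc1 peaks stood near 327 kb from the window start and from 962 kb on, so most lay at the window's end. Scores are not comparable in size between the libraries, so a minimum of 500 is not an equal cut for both factors. The highest counts in other windows were 84 CTCF peaks and 60 Smc1 peaks. The Mb before the clusters on chromosome 18 had 35 CTCF and 29 Smc1 peaks, and the Mb after had 34 and 40. The protocadherin window thus had more CTCF peaks and fewer Smc1 peaks than either flank. These windows come from the same pair of libraries, so their ranks describe this genome profile and are no test.

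**Figure D1:**
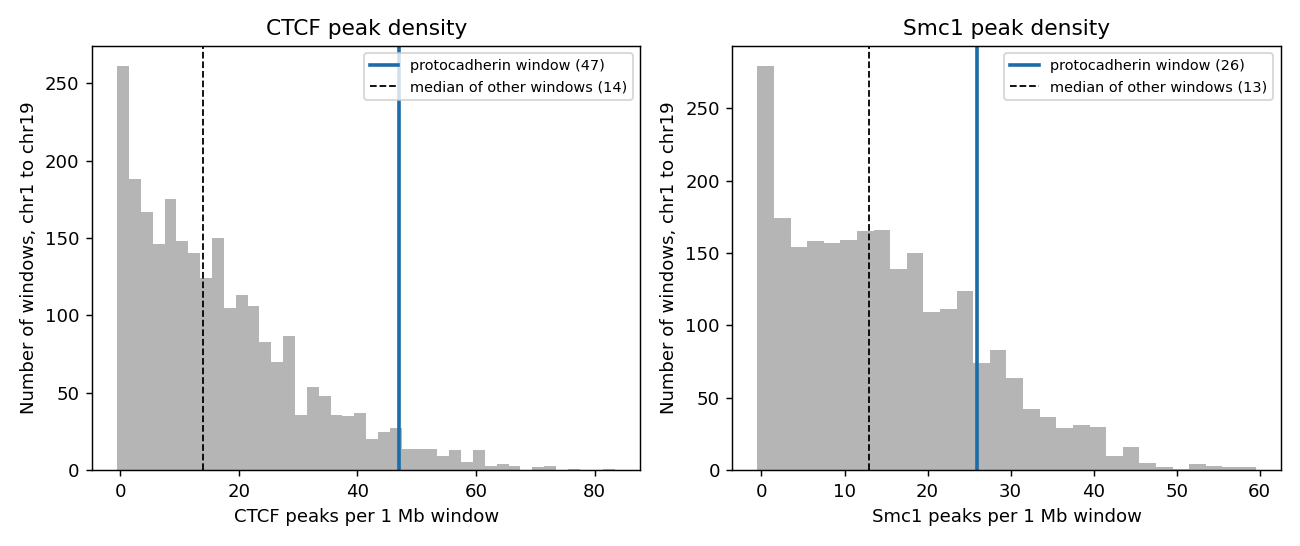
Histograms of the number of CTCF peaks (left) and Smc1 peaks (right) per 1 Mb window, with the number of windows of chr1 to chr19 on the vertical axis. The solid line marks the protocadherin window, at 47 CTCF and 26 Smc1 peaks, and the dashed line the median of the other windows, at 14 and 13.

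Of the 47 CTCF peaks 24 overlapped an Smc1 peak, or 51.1% (exact Clopper-Pearson 95% interval 36.1% to 65.9%), and 23 were CTCF alone. Outside the window 67.7% of 41862 CTCF peaks on chr1 to chr19 were shared, and on the rest of chromosome 18 71.0% of 1241. Both shares lay above the interval of the window, which covers counting error only and treats neighbouring peaks as independent. Among the 876 other windows with at least 20 CTCF peaks, the median shared share was 65.8%, and 58 windows had a lower share than the protocadherin clusters. The flanks had 74.3% before and 79.4% after.

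Seen from cohesin the order was the other way. Of the 26 Smc1 peaks 24 overlapped a CTCF peak, or 92.3% (exact interval 74.9% to 99.1%), against 76.6% of 37087 Smc1 peaks outside the window, a share inside that interval. The Mb before the window stood close to it, at 89.7%, and the Mb after at 67.5%. Of 1558 other windows with at least 10 Smc1 peaks, 164 had a higher share and 10 an equal one. The Smc1 peaks of the clusters were thus nearly all at CTCF peaks, while about as many CTCF peaks lacked an Smc1 peak as had one. In the 24 shared pairs, each with its own Smc1 peak, the centres lay 2 to 123 bp apart, with a median of 33.5 bp against 42.0 bp in the rest of chr1 to chr19. The Smc1 peak was the wider of the pair in 9 of the 24, or 37.5%, near the 32.7% of pairs outside.

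The score is the peak caller's own value for a peak, with 80 as the lowest in both lists. It ranks peaks within a list and is not comparable in size between the libraries, whose depth is unknown. CTCF scores in the window ran from 85.8 through a median of 233 to 1833, against a median of 264 outside. Smc1 scores ran from 87.2 through 198 to 2310, against 229 outside. Shared CTCF peaks had a median score of 298 and those alone 146, compared with 409 and 129 outside the window. Their median widths were 469.5 bp and 372 bp in the window, against 475 bp and 382 bp outside. The shared peaks of the clusters therefore had lower CTCF scores than shared peaks elsewhere, with nearly the same widths.

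Since weak CTCF peaks were shared less often everywhere, the classes were set out by score. Of CTCF peaks with scores from 80 to 120, 2 of 8 in the window were shared against 26.0% outside. From 120 to 200 the count was 2 of 12 against 47.1%, which was the band with the widest difference. From 200 to 400 it was 13 of 19 against 76.0%, from 400 to 800 5 of 6 against 95.2%, and from 800 upwards 2 of 2 against 99.0%. With the outside share of each band applied to the scores of the 47 peaks, 63.6% would be shared, or 29.9 peaks, compared with the 24 counted. That value lies inside the interval of the observed share. The interval treats neighbouring peaks as independent, although peaks of the same class lay in runs, and neither library has a replicate. It therefore cannot decide whether the deficit of shared peaks at equal score was chance. The same weighting for Smc1 gave 74.8% against the 92.3% counted, just below the interval of the latter, and 75.2%, just inside it, with the scores cut into 10 equal parts of the list. All 7 Smc1 peaks with scores from 80 to 120 were at a CTCF peak, against 44.3% outside.

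**Figure D2:**
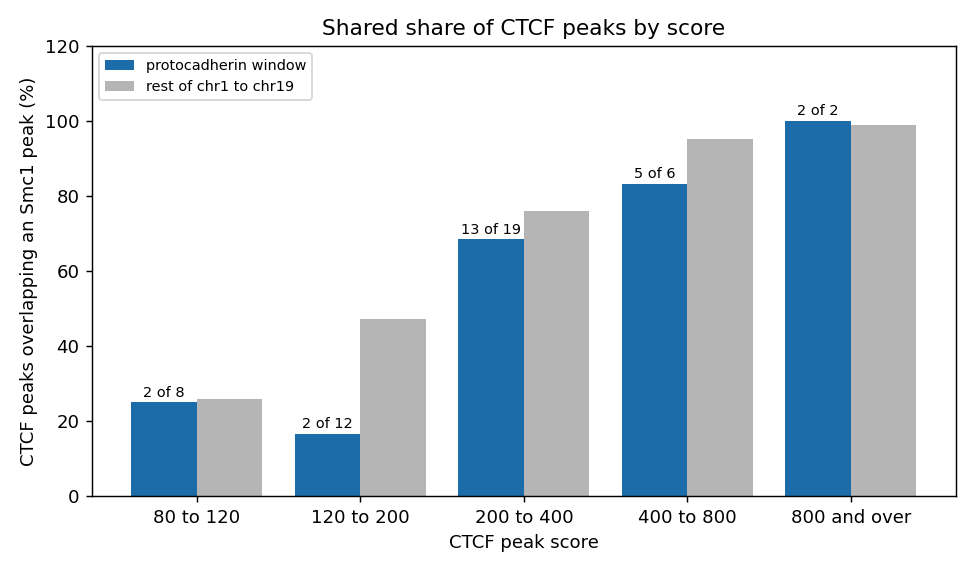
Share of CTCF peaks that overlap an Smc1 peak (vertical axis, percent) by CTCF peak score (horizontal axis), in the protocadherin window (blue, with counts) and in the rest of chr1 to chr19 (grey). The shares rise with score in the rest, and the widest difference is 2 of 12 against 47.1% at scores of 120 to 200.

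CTCF peaks followed each other at short distances, in groups parted by longer intervals. The median distance between neighbouring CTCF centres was 7.33 kb (95% interval of the median 5.85 to 14.2 kb, from order statistics), against 21.4 kb over the rest of chr1 to chr19. Of the 46 distances 27 were under 10 kb, or 58.7%, against 31.3% outside. Of the 1941 other windows with at least 5 CTCF peaks, only 19 had a shorter median distance. The order held at scores of at least 200, with 20.0 kb (6.51 to 44.2 kb) against 34.7 kb outside, though that interval holds the outside value. It reversed at scores of at least 500, where the 6 CTCF peaks left had a median distance of 127 kb against 69.9 kb. That median rests on 5 distances, and its interval of 3.51 to 635 kb holds the outside value. Smc1 centres lay at a median of 12.0 kb (4.58 to 44.8 kb) against 26.8 kb outside, with 12 of 25 distances under 10 kb, or 48.0%, against 28.6% outside, and 108 of 1944 windows had a shorter median. Neither the median distances nor their ranks were matched for density. All other windows had a median of 14 CTCF and 13 Smc1 peaks, against 47 and 26 here. Without the outer 50 kb on each side of the window, the Smc1 median was 25.8 kb, close to the value outside, while that of CTCF stayed at 7.33 kb. The spacing was uneven rather than regular. The standard deviation of the CTCF distances was 149.8% of their mean, above the value of 86.3% of the other windows, whose median was 113%.

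**Figure D3:**
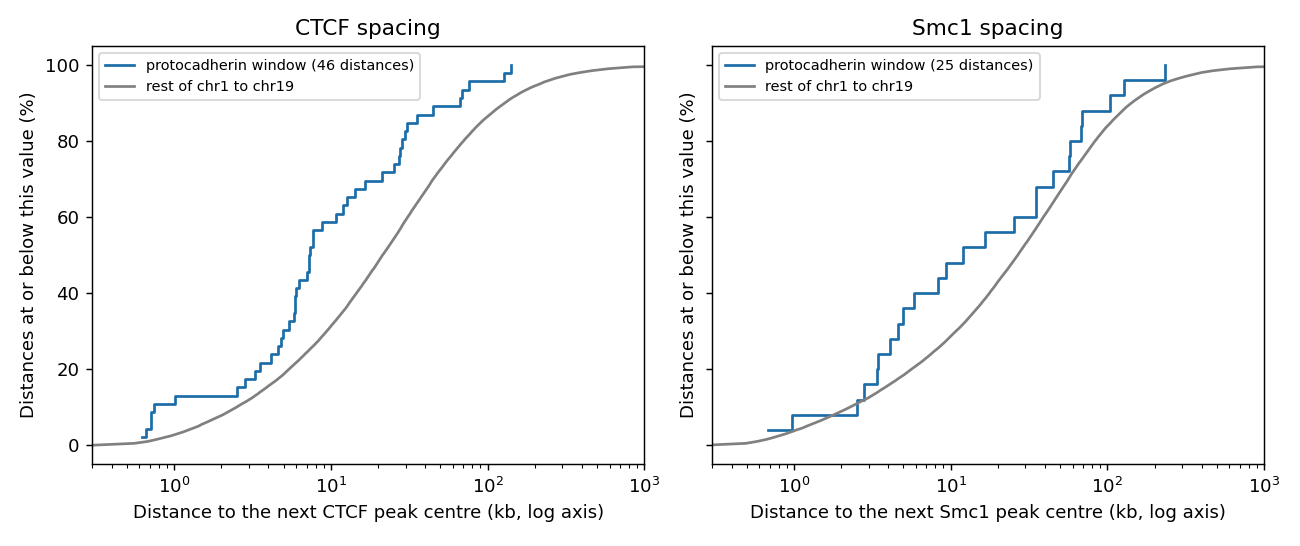
Cumulative share of the distances between neighbouring peak centres (vertical axis, percent) against distance in kb on a log axis, for CTCF (left) and Smc1 (right). The protocadherin window (blue, 46 and 25 distances) reaches 58.7% and 48.0% at 10 kb, where the rest of chr1 to chr19 (grey) stands at 31.3% and 28.6%.

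Intervals of over 60 kb divided the CTCF peaks into 6 stretches, a limit set after the distances had been seen. With a limit of 70 kb there were 4, since the first then joined the second and the fourth the fifth. Intervals of over 60 kb made up 5 of the 46 distances, against 23.3% of 41843 outside, so they were less frequent here than elsewhere. The longest, 142 kb from chr18:37673005-37673341 to chr18:37814963-37815394, held no CTCF peak but a single Smc1 peak. The next, 127 kb, ran from the lone CTCF peak at chr18:37249383-37249750 to the one at chr18:37376832-37377267. The third, 76.4 kb, ran from chr18:37377821-37378290 to chr18:37454273-37454600. Of the other windows with at least 5 CTCF peaks 73.3% had a longest interval above 142 kb, so these empty intervals were not long for the genome. Most of those windows held fewer CTCF peaks, however, and no comparison at equal density was made. For Smc1 the longest distance was 232 kb, across the stretch of CTCF-alone peaks described below, and 738 of 1944 windows had a longer one.

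**Figure D4:**
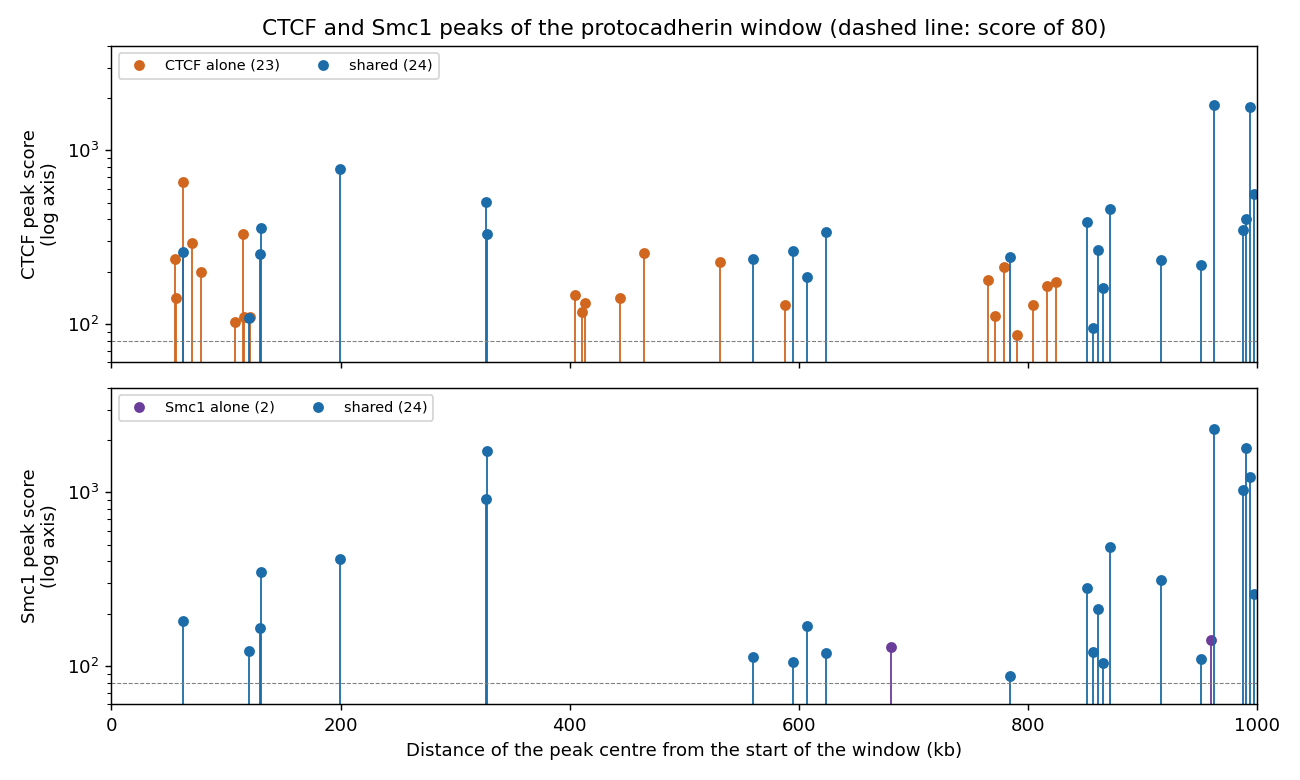
Score on a log axis of each CTCF peak (top) and Smc1 peak (bottom) against the distance of its centre from the start of the window in kb, coloured by class. Shared peaks number 24 in each list, CTCF-alone peaks 23 and Smc1-alone peaks 2, and the 6 Smc1 peaks with scores of 921 or more stand near 327 kb and from 962 kb on.

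The first stretch, chr18:37105436-37180657, held 13 CTCF peaks in 75.2 kb, of which 4 were shared. Its first peak, chr18:37105436-37105921, was the first of the window and CTCF alone. Its scores ran from 102 through a median of 236 to 661. The highest, chr18:37112745-37113123, had no Smc1 peak over it although its score exceeded 81.9% of the CTCF list. It was the only CTCF-alone peak of the window with a score above 400, and the nearest Smc1 centre was 679 bp away. Its class depends on the overlap rule, since it was shared when edges within 500 bp were counted. The 4 Smc1 peaks here were weak to moderate, with scores of 122, 165, 182 and 348.

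A feature of this stretch was its close pairs. All 5 neighbouring CTCF centres of the window that were less than 1 kb apart lay in it, at 623, 663, 711, 714 and 746 bp. The closest pair was chr18:37164630-37165044 and chr18:37165303-37165618, with scores of 327 and 109 and no Smc1 peak at either. In the pair at 746 bp, the Smc1 peak lay over the member with the lower CTCF score, 258, and none over the other, 661. In the pair at 711 bp it lay over the first member, with CTCF scores of 108 and 109. Both members were shared only in the pair at 714 bp, chr18:37179494-37179962 and chr18:37180228-37180657, where CTCF scored 252 and 357 and Smc1 165 and 348. The pair at 663 bp had none. With edges within 500 bp counted as shared, both members of the pairs at 746 and 711 bp were shared as well.

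Such close pairs made up 5 of 46 neighbour distances in the window, or 10.9%, against 2.73% of 41843 outside. At scores of at least 200 2 pairs were left, or 7.69% of distances against 1.77% outside, and at 500 or more 0 were left, against 0.924%. Of the 2480 other windows 6 had more close pairs and 8 had as many. Those 14 windows held 46 to 84 CTCF peaks, against a median of 14 in all other windows. The rank was not matched for density. Both members were shared in 1 of the 5 pairs here and in 54.2% of 1142 pairs outside, and neither in 2 of 5 against 11.6% outside. The limit of 1 kb was set after the distances had been seen, and the next distance was 1.006 kb.

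That next distance belongs to the third stretch, a pair of shared peaks at chr18:37376832-37377267 and chr18:37377821-37378290. It stood out by cohesin. The CTCF scores of 504 and 329 were above 72.5% and 58.2% of their list, whereas the Smc1 scores of 921 and 1730 were above 91.6% and 99.2% of theirs. The single peak of the second stretch, chr18:37249383-37249750, was shared as well, with scores of 781 for CTCF and 414 for Smc1. Both stretches were isolated by at least 69.1 kb on either side.

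The fourth stretch, chr18:37454273-37514868, had 5 CTCF peaks and no Smc1 peak. The CTCF scores were 146, 117, 132, 140 and 257, at most above 49.5% of the list. The nearest Smc1 centre was 76.4 to 115 kb from each of them. With the first peak of the fifth stretch, chr18:37580825-37581310 (score 226), they formed a run of 6 consecutive CTCF-alone peaks. The first stretch held a run of the same length, from chr18:37112745-37113123 to chr18:37165303-37165618. Of the other windows 25 had a longer run and 33 an equal one, while 97.7% had a shorter one. A run cannot exceed the number of CTCF peaks in its window, and the median of the other windows was 14 against 47 here.

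The fifth stretch, chr18:37580825-37673341, held 6 CTCF peaks, of which 4 were shared. The CTCF scores of the shared peaks were 235, 264, 187 and 337. The Smc1 scores at these peaks were 112, 106, 170 and 118, so all 4 stood in the lower part of the Smc1 list, above at most 39.2% of it. Besides its first peak, chr18:37637250-37637526 was CTCF alone here, with a score of 129.

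The last stretch, chr18:37814963-38047082, held 20 CTCF peaks in 232 kb, 13 of them shared, and changed class part of the way along. Its first 8 peaks, up to chr18:37874248-37874510, followed each other at 5.44 to 14.2 kb with scores from 85.8 through 170 to 242, and only 1 was shared, with an Smc1 score of 87.2. The remaining 12 were all shared, with CTCF scores from 94.9 through 365 to 1833. Of the other windows 52 had a longer run of shared peaks and 35 an equal one. This rank was not matched for density, and the other windows had a median of 14 CTCF peaks against 47 here. The division was made where the last CTCF-alone peak lay, so the contrast between its parts is a description.

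The strongest sites of both factors were at the end of this stretch. The CTCF peak chr18:38011656-38012368 scored 1833 and its Smc1 partner chr18:38011527-38012329 scored 2310, above 99.5% and 99.9% of their lists. The CTCF peak chr18:38043057-38043672 scored 1772, with 1226 for Smc1. At chr18:38039806-38040335 CTCF scored 401, above 64.8% of its list, and Smc1 1815, above 99.4%. At chr18:38036965-38037470 the scores were 345 and 1031. The last member of the window, chr18:38046660-38047082, scored 563 for CTCF and 258 for Smc1. All these sites lie in the last 50 kb of the window and were not placed in a gene. Without the outer 50 kb on each side 19 Smc1 peaks were left, and 43.9% of CTCF peaks were shared.

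The 5 highest CTCF scores in the window were thus 1833, 1772, 781, 661 and 563, and all but the fourth, in the first stretch, were shared. The 5 highest Smc1 scores were 2310, 1815, 1730, 1226 and 1031, each at a CTCF peak. Across the 24 shared sites the log10 scores of the factors had a Pearson correlation of 0.71 and the ranks a Spearman correlation of 0.74, against 0.64 and 0.64 over 28320 shared sites outside. These points share their libraries and their chromatin.

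The Smc1-alone peaks were 2. The one at chr18:37730107-37730404 scored 128 and lay 57.1 kb from the nearest CTCF centre, within the longest interval without CTCF. The other, chr18:38009016-38009797, was 782 bp wide, scored 141 and lay 2.61 kb from the centre of the highest CTCF peak. The 23 CTCF-alone peaks lay 0.679 to 115 kb from the nearest Smc1 centre, with a median of 12.9 kb against 13.2 kb outside. Within 2 kb lay 2 of the 23, or 8.70%, near the 10.3% outside.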

How the data were processed

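The NPC data are 1 ChIP-seq library for CTCF and 1 for Smc1. Reads were aligned with Bowtie to mm9, per the submitters' processing notes. The authors deposited 1 list of peak positions per library, in bp on mm9 with no other unit, and a score per peak. Peak names of the deposited lists mention MACS, and the lowest score of 80 with the p-value limit given in the names of the lists matches a log-scaled p-value multiplied by minus 10. How the labelled input library entered the calls, and the depth, are not given in the sources used here. Peaks were assigned by their centre. Overlaps, distances between centres and counts per 1 Mb window were computed in Python 3.11.15 with pandas 2.3.3 and SciPy 1.17.1. Windows started at 50 kb and followed each other up to the last peak of each of chr1 to chr19. The overlap and window counts were tested on simulated peaks. Peaks printed by position are the 5 highest scores per list, the first and last peak, those beside the 3 longest CTCF distances, the closest pair and the Smc1-alone peaks. The other CTCF-alone and shared peaks printed were chosen after their values were seen, as was the division into stretches. The window and lists were chosen with earlier results of these data known. Alternatives were score minimums, overlap rules, window borders and distances between edges. The table of 5C contacts, which covers other loci, was not analysed here.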

Additional observations from a re-analysis of the deposited data

How the results depend on the processing

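Of 99 values recomputed under other settings, 70 stayed within the interval of the first value, or within 1.5 times it for counts, and 29 moved. Higher score minimums leave fewer peaks by construction. They were applied to both lists, so a CTCF peak whose Smc1 partner scored below the minimum no longer counted as shared. With scores of at least 100, 96.5% of windows held fewer CTCF peaks, 87.1% fewer Smc1 peaks and 3.78% had a lower shared share. At 200 or more the window kept 27 CTCF peaks, 13 Smc1 peaks, 13 shared CTCF peaks and 2 close pairs, the CTCF spacing was 20.0 kb (34.7 kb outside), and 93.4% and 76.3% of windows held fewer peaks. At 500 or more it kept 6 CTCF peaks, 6 Smc1 peaks, 3 shared CTCF peaks and 0 close pairs. The spacings there were 127 kb for CTCF (69.9 kb outside) and 3.39 kb for Smc1 (111 kb outside). Each rests on 5 distances, with intervals of 3.51 to 635 kb and 0.973 to 634 kb that hold the outside values. The 6 Smc1 peaks stood only near 327 kb from the window start and from 962 kb on, so their spacing does not describe the whole window. Of the other windows 67.5% held fewer CTCF peaks and 71.6% fewer Smc1 peaks. The window's shared share was then 50.0% (11.8% to 88.2%), against 59.0% outside. These shares count only Smc1 peaks that also scored at least 500. With all Smc1 peaks kept, 5 of 6 CTCF peaks with scores from 400 to 800 were shared, against 95.2% outside. From 800 upwards it was 2 of 2 against 99.0%. Shares were ranked among windows left with at least 20 CTCF peaks. The protocadherin window did not reach that number at the minimum of 500, and 44.9% of those windows had a lower share. With edges within 500 bp counted as shared 11.3% of windows had a lower share, and among windows with at least 40 CTCF peaks 8.65%. Shared CTCF peaks had a median score of 298. The shared share of the window itself lay between 43.9% and 55.3% in all settings tried. Window borders, chrX and distances between edges moved no rank or spacing beyond its interval. For the Smc1 spacing of 12.0 kb that interval was wide, 4.58 to 44.8 kb. It held the 25.8 kb found without the outer 50 kb on each side, close to the 26.8 kb outside the window. The depth of the libraries is unknown, and a CTCF-alone peak is one at which no Smc1 peak passed the authors' limit. No paired analysis was possible because each factor has 1 library.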

Other observations

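Close pairs of CTCF peaks, under 1 kb between centres, were as frequent as in the protocadherin window or more so in 14 other windows of chr1 to chr19. The most, 8, lay in chr5:136050000-137050000 among 57 CTCF peaks. All 14 were dense in CTCF, with 46 to 84 peaks. They held between 37 and 59 Smc1 peaks, compared with 26 over the protocadherins. Of these windows 1, chr7:29050000-30050000, had a lower shared share of CTCF peaks, 46.5% against 51.1%. The 5 windows with most CTCF peaks held 84, 83, 76, 73 and 72, of which 54.8% to 65.8% were shared, and the first of them was chr10:79050000-80050000. The windows with most Smc1 peaks held 60, 59, 59, 57 and 57, led by chr8:124050000-125050000. These windows share the libraries of the protocadherin window, and the comparison was made after the close pairs had been noticed.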
